A study of Mus musculus with 9 samples.

Results

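The transcripts described here are 10 genes of the inflammatory cytokine system: Il1a, Il1b and Il1rn of the interleukin-1 (IL-1) group, Il6, Il11, Lif and Osm of the interleukin-6 (IL-6) group, Tnf, and Il10 and Il12b. They were chosen by name, with earlier results of these data known, and are 10 of the 18755 genes in the deposited counts. RNA sequencing was performed on pieces of snap-frozen primary tumors formed by 4T1 cells, a metastatic mouse mammary cancer cell line. The cells (1000000 per mouse) had been injected into a mammary fat pad of female BALB/c mice aged 6 to 10 weeks, an immunocompetent syngeneic host. From day 15 after injection and for 5 days, the mice received either 0.5% Natrosol, the vehicle, or BI 853520 (BI), an inhibitor of focal adhesion kinase (FAK), at 50 mg/kg by oral gavage. The vehicle group held 3 tumors (replicates 1 to 3) and the BI group 6 tumors (replicates 4 to 9), without further alleles or agents in either group. All tumors grew from the same cell line, so the model stands for 1 line. Tumors whose RNA was too poor had been left out by the authors. The labels do not state that each tumor came from a separate mouse. The p values judge the difference between the groups against the spread between these tumor samples.

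Inflammatory cytokines are secreted signals that myeloid cells, stromal cells and many carcinoma cells exchange within a tumor. IL-1 alpha and IL-1 beta signal through the IL-1 receptor and MyD88 to NF-kB, and the IL-1 receptor antagonist occupies the same receptor without signaling. IL-6, IL-11, leukemia inhibitory factor and oncostatin M share the receptor chain gp130 and act mainly through JAK kinases and STAT3, while TNF acts through its own receptors on NF-kB and cell death pathways. IL-10 dampens macrophage activation, and the p40 protein encoded by Il12b is a subunit of both IL-12 and IL-23. The 4T1 model is known for its strong myeloid response, in which neutrophils accumulate in blood and tumor.

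Of the 10 cytokine genes, 4 fell and 1 rose under BI. Transcripts of Il11, Lif, Il1b and Il6 were lower in every BI tumor than in every vehicle tumor, Il10 was higher in every BI tumor, and the test did not separate the groups for Il1a, Il1rn, Osm, Tnf and Il12b. In edgeR's quasi-likelihood test, 14.1% of the 13966 genes tested were called lower and 14.6% higher at an adjusted p of at most 0.05, together 28.7%. In the same set, all BI tumors lay below all vehicle tumors for 14.0% of genes and above them for 14.1%, so that the groups did not overlap for 28.1%. At the cutoffs used in the study's methods (an unadjusted p value up to 0.05 with a 1.5-fold change or more), 5 of the 10 were lower, with Il1a added, and 2 were higher, with Il12b added, where 3.57% and 9.57% of all genes tested were called (13.1% in all). The median log2 fold change of the 10 genes was -0.49, and that of all genes tested was -0.00371. Since the 10 were chosen with earlier results of these data known, these comparisons with all genes are a description. Because the samples were bulk tumor pieces, fewer cells of a type and less RNA per cell cannot be told apart for any of these genes.

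**Figure D1:**
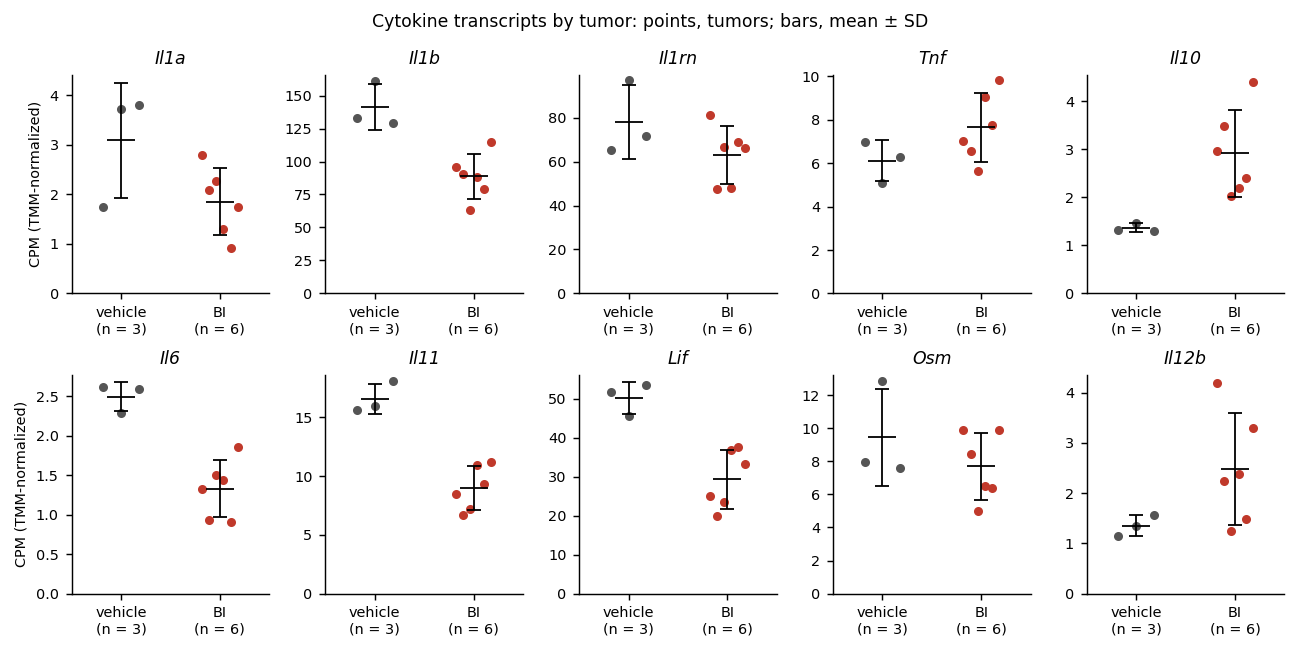
Expression of the 10 cytokine genes in CPM (counts scaled to the library total with TMM factors) for the 3 vehicle and the 6 BI tumors. Vertical axes start at 0, with a point for each tumor and bars for the mean ± SD. The BI points of Il11, Lif, Il1b and Il6 all lie under the vehicle points, those of Il10 all lie over them, and the groups overlap in the other panels.

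All 10 genes were above the floor of 3 counts in every tumor, and all passed the filter on low counts. Total counts on genes ranged from 21727879 to 33850245 in the vehicle group and from 16931607 to 22349873 in the BI group. By these totals alone, without TMM factors, 1 count was worth between 0.0295 and 0.0591 CPM, and the floor of 3 counts between 0.0886 and 0.177 CPM. Vehicle replicate 3 was the deepest library. No pair of libraries agreed within counting error, with a mean chi-square per gene of at least 7.36 within groups. No batch is named in the labels.

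To show what lies upstream of the genes that fell, the RefSeq promoter windows of Il6, Il11, Lif and Il1b are printed from 250 bases before each transcription start, 5′ to 3′ on the strand of the gene, in the build GRCm38.p6. Capitals mark matches to any of 6 letter patterns searched on both strands. The NF-kB pattern was GGG and CC with 5 bases of any kind between them, the C/EBP pattern TTNNGNAA, the AP-1 pattern TGANTCA, the CRE pattern TGACGTCA, the STAT pattern TTCNNNGAA and the core promoter pattern TATAAA. The windows lie at chr5:30012864-30013113 on the plus strand for Il6, chr7:4782858-4783107 and chr7:4778142-4778391 on the minus strand for the starts of Il11, chr11:4257318-4257567 on the plus strand for Lif, and chr2:129371140-129371389 on the minus strand for Il1b.
Il6: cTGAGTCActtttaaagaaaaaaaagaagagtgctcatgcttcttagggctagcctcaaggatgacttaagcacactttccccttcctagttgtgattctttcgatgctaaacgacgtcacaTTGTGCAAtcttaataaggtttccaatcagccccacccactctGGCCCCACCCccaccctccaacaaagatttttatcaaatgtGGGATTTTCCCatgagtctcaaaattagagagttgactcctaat
Il11 upstream start: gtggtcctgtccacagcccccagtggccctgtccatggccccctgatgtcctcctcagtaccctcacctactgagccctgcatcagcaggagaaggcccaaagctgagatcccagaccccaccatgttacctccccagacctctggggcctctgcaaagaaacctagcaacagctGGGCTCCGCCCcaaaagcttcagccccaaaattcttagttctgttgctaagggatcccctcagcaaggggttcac
Il11 downstream start: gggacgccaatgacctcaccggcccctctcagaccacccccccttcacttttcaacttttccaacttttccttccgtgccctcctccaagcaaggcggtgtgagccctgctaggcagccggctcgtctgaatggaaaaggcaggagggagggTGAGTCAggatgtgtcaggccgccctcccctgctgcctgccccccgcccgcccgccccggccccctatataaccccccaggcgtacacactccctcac
Lif: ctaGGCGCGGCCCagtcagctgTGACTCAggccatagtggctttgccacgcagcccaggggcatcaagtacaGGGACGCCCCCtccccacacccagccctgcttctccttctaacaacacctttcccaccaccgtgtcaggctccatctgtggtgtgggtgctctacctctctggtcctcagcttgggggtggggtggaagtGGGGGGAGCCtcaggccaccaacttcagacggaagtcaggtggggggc
Il1b: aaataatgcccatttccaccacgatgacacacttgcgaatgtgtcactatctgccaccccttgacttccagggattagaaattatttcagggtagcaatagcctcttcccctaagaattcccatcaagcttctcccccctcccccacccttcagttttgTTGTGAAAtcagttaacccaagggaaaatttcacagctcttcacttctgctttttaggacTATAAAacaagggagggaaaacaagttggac

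The Il6 window held an NF-kB pattern between 44 and 35 bases before the start, which on the other strand is matched again with a shift of 1 base, a further one between 85 and 76 bases, a C/EBP pattern between 128 and 121 bases and an AP-1 pattern between 249 and 243 bases. In the Lif window there were 4 NF-kB matches, of which 2 overlapped on opposite strands, and an AP-1 pattern lay between 228 and 222 bases before the start. Il11 had overlapping NF-kB patterns at the upstream start and an AP-1 pattern between 98 and 92 bases before the downstream start. In contrast, the Il1b window held a C/EBP pattern and a TATA box but no match to the NF-kB or AP-1 letters.

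Promoter windows were found for 8 of the 10 genes, 11 windows in all, and those of Osm and Il10 were not among them. The AP-1 letters were present in at least 1 window of Il1a, Il1rn, Il6, Il11 and Lif, and the share over all 32851 windows of the same length was 6.75%. The looser NF-kB letters were present for Il1rn, Il6, Il11, Lif and Tnf and in 45.8% of all windows, the C/EBP letters in 36.8%, the TATA box in 12.4%. No member window matched the STAT letters (7.02% of all windows) or the CRE letters (1.55%), and Il12b matched none of the 6. Genes with several starts had more windows to match, and a match is a description of letters, not of a bound factor.

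Among the IL-1 genes, Il1b (Entrez 16176, chr2:129190306-129196875 on mm9, minus strand), which encodes IL-1 beta, was by far the most abundant of the 10 per length, and it fell. Vehicle tumors measured 133, 161 and 129 CPM, and the BI tumors had a lowest value of 63.4, a median of 89.3 and a highest value of 115 CPM. All 6 BI tumors thus lay under the lowest vehicle tumor. The log2 fold change was -0.67 with a standard error (SE) of 0.142 (edgeR, adjusted p = 0.00475), and the adjusted p stayed at or under 0.0284 whichever tumor was left out. Exons of Il1b overlap those of Gm14047 on the other strand in the mm9 annotation, and whether the counting used the strand is not stated.

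Il1a (Entrez 16175, chr2:129125346-129135708, minus strand), encoding the membrane-bound and alarmin form IL-1 alpha, lies 54597 bases from Il1b on the same strand and was far scarcer. It measured 1.74, 3.71 and 3.799 CPM in the vehicle tumors, while the BI tumors ranged from 0.913 to 2.79 CPM around a median of 1.91. Vehicle replicate 1 lay inside the BI range. Its fitted log2 fold change was -0.74 (SE 0.328, edgeR, unadjusted p = 0.0439, adjusted p = 0.112). In edgeR's test it was -1.02 without vehicle replicate 1 (adjusted p = 0.0480) and -0.56 without vehicle replicate 3 (adjusted p = 0.350). The exons of Il1a overlap Gm14023 on the other strand.

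Il1rn (Entrez 16181, chr2:24192373-24207014, plus strand) encodes the receptor antagonist. Vehicle tumors measured 65.6, 97.3 and 71.7 CPM and BI tumors between 47.5 and 81.5 CPM, with a median of 66.3. Only 2 BI tumors lay under every vehicle tumor, and the log2 fold change was -0.31 (SE 0.168, edgeR, adjusted p = 0.192). Without vehicle replicate 2, the highest tumor, it was -0.12 (edgeR, adjusted p = 0.666). Within each tumor, the ratio of Il1rn to Il1b TPM (counts per length, scaled to the same sum in each library) lay between 0.244 and 0.298 in vehicle tumors and between 0.259 and 0.518 in BI tumors, of which 3 exceeded the vehicle range.

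Il11 (Entrez 16156, chr7:4724669-4734460, minus strand), a stromal and carcinoma cytokine of the gp130 family, had the smallest p of the 10 genes. Its vehicle values were 15.6, 16.01 and 18.1 CPM, and its BI values had a lowest of 6.72, a median of 8.88 and a highest of 11.2 CPM. The groups were well apart, with means of 16.6 ± 1.31 CPM (SD, n = 3) and 8.98 ± 1.88 CPM (n = 6). Il11 fell by 0.89 on the log2 scale (SE 0.153, edgeR, adjusted p = 0.00141), and leaving out any 1 tumor kept the adjusted p at or under 0.0117.

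Lif (Entrez 16878, chr11:4157560-4172517, plus strand), encoding leukemia inhibitory factor, measured 51.6, 45.6 and 53.6 CPM under vehicle. After BI it reached at most 37.7 CPM, with a median of 29.1 and a lowest value of 19.9. No BI tumor came within the vehicle range. On the log2 scale the fold change was -0.78 (SE 0.176, edgeR, adjusted p = 0.00697), with at most 0.0367 when a tumor was left out.

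Il6 (Entrez 16193, chr5:30339701-30346508, plus strand), the founding cytokine of the family, was scarce in these tumors and rested on 16 to 88 counts per library. Vehicle tumors measured 2.61, 2.28 and 2.59 CPM, and BI tumors had a lowest value of 0.913, a median of 1.38 and a highest value of 1.85 CPM. All BI tumors were lower than all vehicle tumors. The fitted log2 fold change was -0.91 (SE 0.233, edgeR, adjusted p = 0.0131). Without vehicle replicate 3, the deepest library, the value was -0.88 and the adjusted p was 0.0565, so that the call was lost.

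Osm (Entrez 18413, chr11:4136423-4141029, plus strand), encoding oncostatin M, a product of activated myeloid cells, is a neighbor of Lif at a distance of 16530 bases on the same strand. Unlike Lif, its groups overlapped, with 7.93, 12.8 and 7.60 CPM under vehicle and a range of 5.02 to 9.92 CPM around a median of 7.48 under BI. The log2 fold change of -0.29 (SE 0.230, edgeR, adjusted p = 0.368) came down to -0.01 when vehicle replicate 2, the highest tumor, was left out.

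Tnf (Entrez 21926, chr17:35336326-35338952, minus strand) did not pass the test. The vehicle values were 6.96, 5.10 and 6.30 CPM, while the BI tumors had a lowest value of 5.65, a median of 7.40 and a highest value of 9.85 CPM. Of the 6 BI tumors, 4 lay above the vehicle range and none below it. The log2 fold change was 0.32 (SE 0.178, edgeR, adjusted p = 0.200), and it remained positive, between 0.21 and 0.42, with each tumor left out.

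Il10 (Entrez 16153, chr1:132916422-132921551, plus strand), which encodes the deactivating cytokine, was the only member that rose at the adjusted p. It measured 1.33, 1.48 and 1.30 CPM in the vehicle tumors and 2.03 (lowest), 2.69 (median) and 4.40 CPM (highest) in the BI tumors. The ranges did not overlap. Its log2 fold change was 1.09 (SE 0.271, edgeR, adjusted p = 0.0112) on 29 to 76 counts per library, and without vehicle replicate 3 it was 1.05 with an adjusted p of 0.0517.

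Il12b (Entrez 16160, chr11:44213565-44227535, plus strand) measured 1.15, 1.34 and 1.56 CPM under vehicle and between 1.26 and 4.20 CPM, with a median of 2.31, under BI. The highest and lowest BI tumors differed more than the groups did, and 4 of 6 BI tumors exceeded every vehicle tumor. A log2 fold change of 0.87 was fitted (SE 0.360, edgeR, unadjusted p = 0.0335, adjusted p = 0.0919). In edgeR's test the value was 1.00 without BI replicate 6 (adjusted p = 0.0384). It was 0.64 without BI replicate 4, the highest tumor (adjusted p = 0.154), and 0.76 without vehicle replicate 1 (adjusted p = 0.235). Its partner for IL-12, Il12a, had between 1 and 5 counts per library and was not tested, and its partner for IL-23, Il23a, had 23.0 ± 4.73 CPM under vehicle and 19.6 ± 1.73 CPM under BI (edgeR, log2 fold change -0.23, adjusted p = 0.171).

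**Figure D2:**
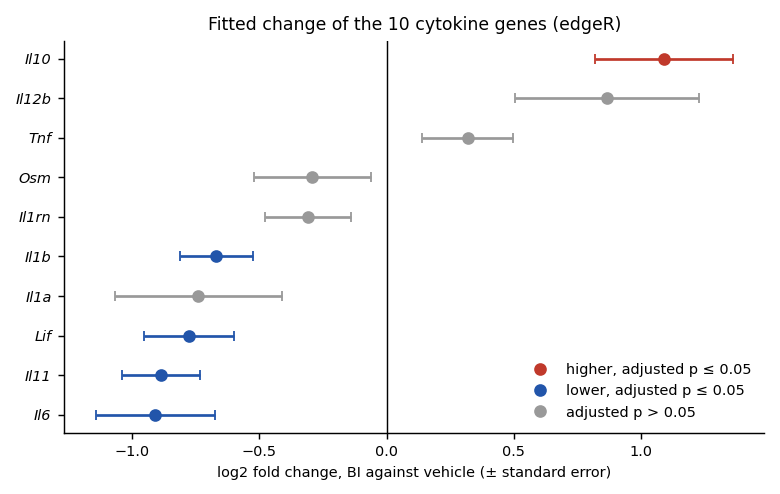
Fitted log2 fold change (horizontal axis, BI against vehicle) of each cytokine gene with its standard error, ordered by size. Il6, Il11, Lif and Il1b are called lower at -0.91, -0.89, -0.78 and -0.67, Il10 is called higher at 1.09, and the gray points of Il1a, Il1rn, Osm, Tnf and Il12b did not pass the adjusted p.

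Compared per length, Il1b dominated the group in both conditions. In vehicle tumors the order of mean TPM was Il1b with 264 ± 26.8 (SD, n = 3), Il1rn with 72.2 ± 14.1, Lif with 31.1 ± 3.26, Il11 with 21.2 ± 2.10, Osm with 12.3 ± 3.53, Tnf with 9.24 ± 1.56, Il6 with 5.72 ± 0.539, Il1a with 3.89 ± 1.48, Il10 with 2.60 ± 0.124 and Il12b with 1.73 ± 0.291. Only the neighbors Osm and Tnf and the neighbors Il1a and Il10 overlapped in range. Under BI, the genes at the top were in the same order (Il1b 165 ± 33.2, Il1rn 58.0 ± 12.1 and Lif 17.95 ± 4.50 TPM, n = 6). From Lif downward each gene overlapped the next, with Tnf (11.4 ± 2.35), Il11 (11.4 ± 2.37) and Osm (10.005 ± 2.74) at similar levels. Il6, with 3.02 ± 0.814 TPM, then stood after Il10, with 5.53 ± 1.77 TPM, and Il12b, with 3.15 ± 1.44 TPM. Il1b made up 62.3% ± 1.35 of the summed TPM of the 10 genes under vehicle and 57.1% ± 4.28 under BI, and the share of Il10 was 0.616% ± 0.0280 and 1.90% ± 0.404.

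Within a tumor, ratios of TPM set the genes side by side without a library scale. These ratios were chosen after the values of the single genes had been seen, and the direction of some follows from them, so they are given without a test. The ratio of Il10 to Il6 was 0.423, 0.539 and 0.416 in the vehicle tumors and between 1.13 and 3.10 in the BI tumors. The ratio of Lif to Il6 lay between 5.32 and 5.56 under vehicle and between 4.22 and 11.1 under BI, so the BI range enclosed the vehicle range.

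Single markers of myeloid cells also differed between the groups. Csf1r, the receptor for the macrophage growth factor CSF-1, rose from 229.9 ± 16.5 to 431 ± 39.6 CPM (edgeR, adjusted p = 4.0e-05), and S100a8, an abundant neutrophil protein, fell from 152 ± 27.5 to 63.6 ± 15.95 CPM (edgeR, adjusted p = 0.000582). Per Csf1r transcript, Il1b was lower in all BI tumors (0.424 to 0.785 against 1.56 to 2.10 in TPM). Per S100a8 transcript, Il1b was above the vehicle range of 0.246 to 0.318 in 5 of 6 BI tumors, with a BI range of 0.290 to 0.567. The ratios to Csf1r and to S100a8 each rest on 1 marker, and ratios to other macrophage or neutrophil markers were not computed. The median log2 fold change was -0.46 over the 14 neutrophil markers tested, and that of Il1b was -0.67. Per Csf1r transcript, Il10 overlapped between the groups, at 0.0159 to 0.0195 under vehicle and 0.0138 to 0.0305 under BI. What part cell numbers had in the change of Il1b or Il10 was not tested.

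**Figure D3:**
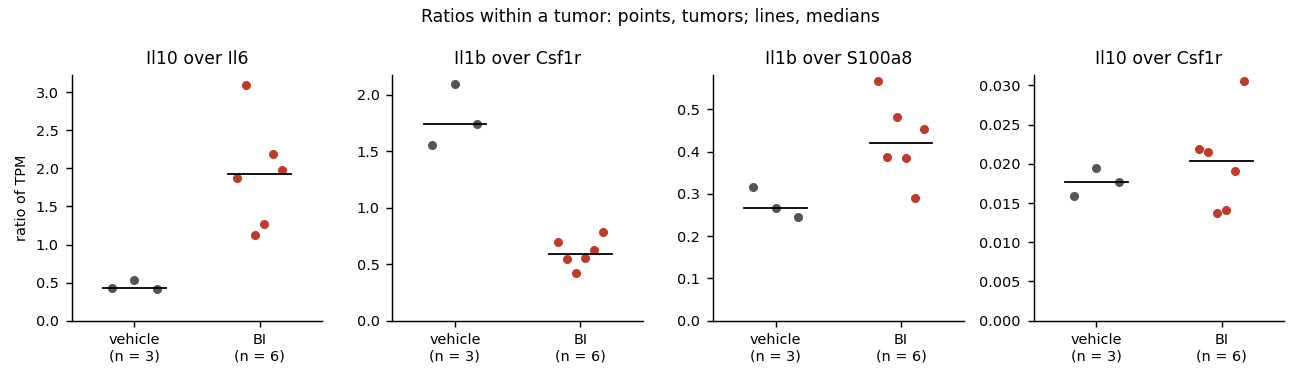
Ratios of TPM within each tumor (vertical axes starting at 0) for Il10 over Il6, Il1b over Csf1r, Il1b over S100a8 and Il10 over Csf1r, with a point for each of 3 vehicle and 6 BI tumors and a line at the median. The groups are apart for Il10 over Il6 and for Il1b over Csf1r, and they overlap in the other panels.

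Whole lists of cell type markers were read by their calls and by their summed CPM. These lists, and the pathway lists further on, were chosen with earlier results of these data known. Of all genes tested, 14.6% were called higher and 14.1% lower. The macrophage and monocyte list had 12 genes higher and 1 lower (Cd14) of 14 tested, with sums of 3256 to 4057 under vehicle and 5571 to 7395 under BI. Of 14 neutrophil markers, 5 were lower (Retnlg, S100a9, Cxcr2, S100a8 and Il1r2) and none higher at the adjusted p, and the sums were 1215 to 1390 against 476 to 991. The other 9 were not called, among them Mmp9, the gene of this list with the most counts. Neither list had a gene at 0 in all tumors.

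In the lists that follow, sums under vehicle are given before those under BI, and the counts are to be read against the 14.6% of all genes tested that were called higher and the 14.1% called lower. Of the lymphoid genes, 8 of 10 T cell genes (81.0 to 87.4 against 145 to 205 CPM) and 7 of 8 NK cell genes (55.0 to 73.5 against 152 to 193 CPM) rose. The B cell list had 2 of 5 genes higher, and its sums overlapped between the groups (8.09 to 9.67 against 7.43 to 15.8 CPM). Mast cell genes had 7 higher and 1 lower of 9, with sums of 65.6 to 93.6 CPM against a wide range of 83.3 to 529.7 CPM. Dendritic cell genes had 5 higher and 1 lower (Fscn1, the gene of this list with the most counts) of 10, while their sum was lower in every BI tumor than in every vehicle tumor, at 510.1 to 556 against 421 to 501 CPM. The fibroblast list had 2 of 10 higher (1999 to 3434 against 2646 to 5878 CPM) and the endothelial list 2 of 8 (195 to 221 against 217 to 305 CPM), shares near the 14.6% of all genes. Epithelial genes, which mark the carcinoma cells, had 2 of 10 lower, Krt18 and Krt8, with 966 to 1189 against 759 to 967 CPM. No gene of the skeletal muscle (5 tested) or adipocyte list (6 tested) was called at the adjusted p in edgeR's test, with 4.49 to 17.8 against 4.11 to 12.9 CPM and 39.9 to 70.2 against 61.7 to 344 CPM. Larger and smaller counts both changed with single tumors. With 1 tumor left out, the higher macrophage and monocyte genes numbered 9 to 13 and the higher T cell genes 7 to 8. The higher NK cell genes then numbered 5 to 8, and the higher mast cell genes 5 to 8. Of the higher calls, the 2 fibroblast genes were 0 without vehicle replicate 1 or 2 and 5 without BI replicate 6, the 2 endothelial genes were 0 without vehicle replicate 3 and 5 without BI replicate 6, the 2 B cell genes were 0 without vehicle replicate 2 or 3 or BI replicate 7, and the 5 dendritic cell genes were 3 without vehicle replicate 2. The 1 lower mast cell gene was no longer called without vehicle replicate 2 or 3, and the 2 lower epithelial genes were 1 without vehicle replicate 1 or 2 or BI replicate 6, 7, 8 or 9. The part of these shifts in the cytokine changes was not tested.

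Receptors of the cytokines changed in both directions. The IL-1 family list of ligands, receptors and decoys had 6 genes lower and 2 higher of 12 tested, and the share called in all genes was 28.7%. The signaling receptor Il1r1 fell from 285 ± 13.3 to 244 ± 13.4 CPM (log2 fold change -0.22, edgeR, adjusted p = 0.0183), its partner Il1rap fell from 36.7 ± 3.66 to 26.6 ± 4.45 CPM, and the decoy Il1r2, also a neutrophil marker, fell from 20.4 ± 1.79 to 13.2 ± 2.23 CPM. The call of Il1r1 was lost without vehicle replicate 1 or 3 and that of Il1rap without vehicle replicate 2 or 3, with adjusted p values in edgeR up to 0.0871 and 0.0794. The alarmin Il33 fell from 40.0 ± 6.50 to 23.4 ± 2.88 CPM, and the IL-36 gamma gene, listed in RefSeq as Il1f9, fell from 5.60 ± 1.40 to 2.29 ± 0.554 CPM. In contrast, the IL-18 receptor Il18r1 and the IL-18 inhibitor Il18bp rose, by 0.90 and 0.52 on the log2 scale. Sigirr, a dampening receptor of the family, fell by 0.45.

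The IL-1 processing and signaling list had 8 genes higher and 1 lower of 17 tested, where 14.6% of all genes were higher. Pycard, an inflammasome adaptor, rose by 0.81 on the log2 scale (edgeR, adjusted p = 0.00398), the receptor adaptor Myd88 by 0.46 and the kinase Irak4 by 0.44, and Irak2, another kinase of the route, fell by 0.29 on the log2 scale (edgeR, adjusted p = 0.0335). Exons of Myd88 overlap Acaa1a, and those of Irak4 overlap Twf1, on the other strand. The count of 8 was 4 without vehicle replicate 2 and 5 without vehicle replicate 3, and Irak2 was no longer called without vehicle replicate 1, 2 or 3 or BI replicate 7 or 9.

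The IL-6 family list had 3 higher and 1 lower of 12 tested, a share near the 28.7% of all genes called. Lifr, the receptor chain for leukemia inhibitory factor, rose in every BI tumor above every vehicle tumor, from 31.8, 31.9 and 28.9 CPM to a lowest of 61.7 and a highest of 113 CPM, by 1.48 on the log2 scale (SE 0.193, edgeR, adjusted p = 0.000239). The receptor thus rose while the ligand Lif fell in the same tumors. Il11ra1, the IL-11 receptor, rose from 13.1 ± 1.504 to 19.0 ± 2.35 CPM, with exons that overlap Ccl27a on the other strand. Ebi3, a subunit of IL-27, rose by 0.62, a call that was lost without vehicle replicate 3 (edgeR, adjusted p = 0.0636). Il6st, which encodes gp130, fell from 498 ± 24.9 to 408 ± 29.3 CPM (log2 fold change -0.29, edgeR, adjusted p = 0.00933), and this call was lost without vehicle replicate 3, at an adjusted p of 0.0537. Il6ra and Osmr, with 117 ± 11.9 and 133 ± 18.4 CPM under BI against 114 ± 4.24 and 128 ± 9.84 CPM, showed log2 fold changes of 0.03 and 0.06 (edgeR, adjusted p of 0.796 and 0.706), whose signs turned when single tumors were left out.

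Genes that act below gp130 showed no common direction. The JAK, STAT and SOCS list had 4 higher and 1 lower of 14, near the 28.7% of all genes called, with Tyk2, Pias3 and Cish rising by 0.42, 0.30 and 0.62 and Jak2, the kinase bound to gp130 among others, falling by 0.41 on the log2 scale (485 ± 16.5 to 365 ± 25.9 CPM, edgeR, adjusted p = 0.00102). Without vehicle replicate 1 the 4 higher genes numbered 2. The feedback inhibitor Socs3, a STAT3 target chosen for mention after its value was seen, had 163 ± 15.7 and 149.8 ± 16.3 CPM (log2 fold change -0.13, edgeR, adjusted p = 0.339). The list of STAT3 target genes had 3 higher (Fgl2, Il4ra and Mcl1) and 3 lower (Myc, Bcl2l1 and Lcn2) of 18, again near the share over all genes, and its median log2 fold change was 0.02. The lower genes numbered 5 without BI replicate 8 and also with DESeq2 or the likelihood ratio test.

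For TNF, the list of receptors and signaling genes had 3 higher and 1 lower of 19, no larger a share than the 28.7% of all genes called. Tnfrsf1a, the broadly expressed receptor, rose from 140.3 ± 2.99 to 169 ± 8.85 CPM (log2 fold change 0.27, edgeR, adjusted p = 0.00470), and Tnfrsf1b, the receptor of leukocytes, had 203 ± 12.5 and 249 ± 38.6 CPM (0.29, edgeR, adjusted p = 0.0827). Ltb, encoding lymphotoxin beta, rose by 0.90 and the kinase Ripk1 by 0.23 on the log2 scale. Rhbdf1, a partner of the protease that releases TNF from the membrane, fell by 0.33. DESeq2 called 5 genes of the list higher.

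The IL-10 and IL-12 families had 6 of 15 list entries tested, with 3 higher and none lower at the adjusted p. Of all genes tested, 14.6% were called higher and 14.1% lower. Il10ra, the IL-10 receptor chain of leukocytes, rose from 50.4 ± 4.38 to 90.4 ± 9.20 CPM (log2 fold change 0.84, SE 0.0912, edgeR, adjusted p = 7.57e-05), and all BI tumors lay above all vehicle tumors. Il12rb2, the inducible IL-12 receptor chain, rose from 3.68 ± 0.521 to 6.48 ± 1.04 CPM, and Il10rb rose by 0.32 on the log2 scale with exons that overlap Ifnar2 on the same strand. Il12rb1 had 32.3 ± 3.50 and 33.7 ± 5.48 CPM (log2 fold change 0.06, edgeR, adjusted p = 0.770).

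Known NF-kB target genes form a list without any of the 10 cytokines, and it shares the lower genes Tnfaip3 and Lcn2 with other lists. It had 12 lower and 1 higher of 23 tested, against 14.1% and 14.6% of all genes, and a median log2 fold change of -0.47. Like the other lists, it was chosen with earlier results of these data known, so the comparison with all genes is a description. Csf3, which encodes the neutrophil growth factor G-CSF, fell from 29.9, 24.2 and 27.6 CPM to between 6.34 and 10.5 CPM, by 1.85 on the log2 scale (SE 0.140, edgeR, adjusted p = 1.29e-05). The chemokine Cxcl1 and the prostaglandin synthase Ptgs2, chosen for mention after their values were seen, fell by 1.47 and 1.22. The prostaglandin enzyme Ptges fell from 182 ± 1.29 to 131 ± 11.6 CPM. The chemokine Ccl7 was the 1 higher gene, at 0.43 (edgeR, adjusted p = 0.0393). The 12 lower genes numbered 8 without vehicle replicate 3, and the count of higher genes was between 0 and 2 with single tumors left out (0 without any vehicle tumor or BI replicate 4, 6 or 9, and 2 without BI replicate 5).

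The NF-kB subunits and inhibitors had 4 lower and 1 higher of 15, where 28.7% of all genes were called. Tnfaip3, the feedback inhibitor A20, fell from 64.0 ± 6.77 to 46.3 ± 2.02 CPM (log2 fold change -0.47, edgeR, adjusted p = 0.000585), Nfkb1 and Nfkb2 fell by 0.19 and 0.23, and the kinase Ikbkb rose by 0.32. The count of 4 was 1 without vehicle replicate 1 or 2 and 2 without vehicle replicate 3, BI replicate 7 or BI replicate 8. Regulators of cytokine mRNA decay, which bind the AU-rich or stem-loop elements of such transcripts, had 2 higher and 4 lower of 12, where 14.6% and 14.1% of all genes were called. Of these, Rc3h1, Hnrnpd and Khsrp fell by 0.28, 0.24 and 0.23, and Arid5a and Zfp36l1 rose by 0.20 and 0.28. The 4 were 2 without vehicle replicate 1, vehicle replicate 2 or BI replicate 9, and 1 without vehicle replicate 3, and the 2 higher genes were 0 without vehicle replicate 1 or 3 or BI replicate 6 or 7.

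**Figure D4:**
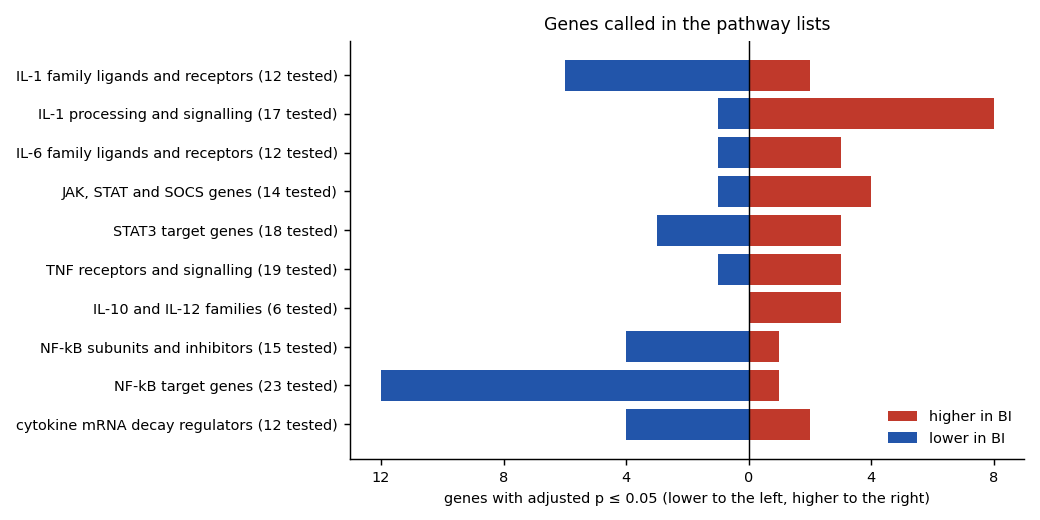
Number of genes in each pathway list called at an adjusted p of at most 0.05, with those lower in BI tumors to the left of 0 and those higher to the right. The NF-kB target list has 12 genes to the left and 1 to the right, and the IL-1 processing and signaling list has 1 to the left and 8 to the right. The lists were chosen with earlier results of these data known.

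The 10 genes did not vary together as a block within the groups. Among the 6 BI tumors, replicates 7, 8 and 9 had the 3 highest values of both Il11 and Lif, and replicate 5 had the lowest of both. The Pearson correlation of log2 CPM over the 9 tumors, after subtraction of the group means, was 0.874 for Il11 and Lif, 0.909 for Il1b and Osm, 0.845 for Il1b and Il10 and -0.674 for Il1a and Lif. These were the highest values and the lowest among all pairs of the 10 genes, and the other pairs lay between them. In this selected pair, Il1b and Il10 went together from tumor to tumor while their group means moved in opposite directions. The values share the library and its scale, and are a description over 9 points.

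**Figure D5:**
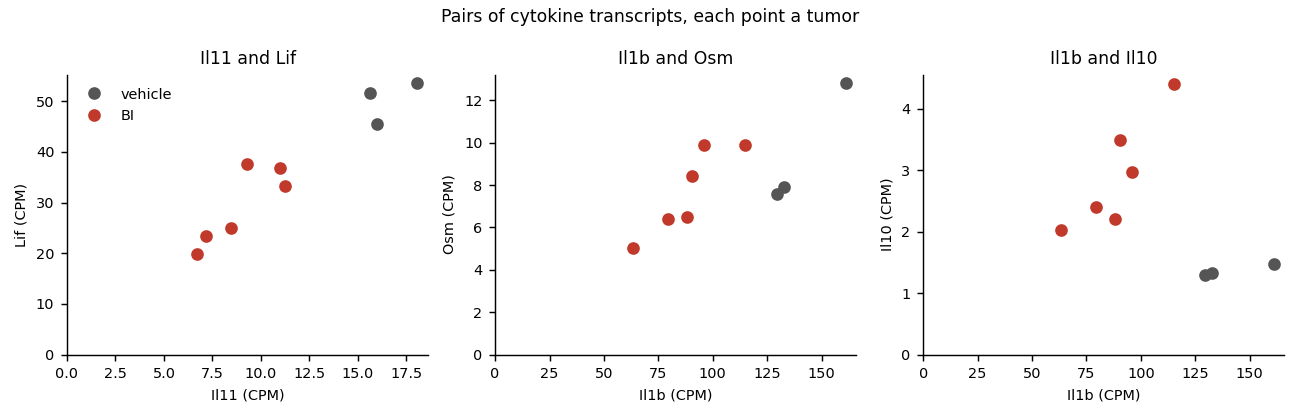
CPM of Il11 against Lif, Il1b against Osm and Il1b against Il10, with both axes starting at 0 and a point for each vehicle (n = 3) and BI (n = 6) tumor. Il11 and Lif lie along 1 rising band through both groups, whereas in the third panel each group has its own rising band, with BI tumors at lower Il1b and higher Il10.

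By the same within-group measure, the genes most like each cytokine reached correlations between 0.935 and 0.984 over the 9 tumors, chosen from all genes with a mean log2 CPM of at least 1. For Il11 they were Cd69 and Kif1c, for Lif Pcolce and Pprc1, for Il6 Taf5 and Cep72, and for Il1b Srrm1 and Irx3. For Osm they were Snx25, with the highest value of 0.984, and Tgm1, for Il1a Cab39 and Msantd2, and for Il1rn Rpl32 and Pgam1. Tnf was closest to Map3k9 and Gpr18, Il10 to Notch4 and Cd55, and Il12b to Rnase4 and Mpp6. With 9 tumors and so many genes searched, these names are a description.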

How the data were processed

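RNA sequencing libraries (stranded mRNA, paired ends) were made from 9 tumors. The submitters' processing notes name STAR and mm9, and per the paper's methods the authors kept uniquely aligned reads and counted those that started in an annotated exon of a RefSeq gene. The authors deposited raw counts of 18755 genes without normalization, beside gene lengths, which served for TPM only. Use of the strand and of both mates is not given in the sources used here. Symbols came from RefSeq by Entrez identifier (18700 genes), positions and exon overlaps from GENCODE on mm9, and promoter windows from RefSeq.

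Counts were fitted whole with edgeR 4.0.16 (R 4.3.3): TMM (factors 0.984 to 1.02), filterByExpr (minimum count 10, minimum total 15) and a quasi-likelihood F test between the groups with no covariate, with Benjamini-Hochberg adjustment over 13966 genes. The script was tested on simulated data. Log2 CPM used a prior count of 2. The standard errors given with edgeR fold changes were derived from the test, as the absolute log2 fold change divided by the square root of F. Floors cover counting error only.

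Named genes were the 10 members, up to 3 called genes in each direction of each of 10 pathway lists, the members' receptor chains and partner subunits, and the gene with the most counts of each of 12 marker lists, besides genes marked in the text and the markers named in counts. Of 289 list entries, 7 had no gene in the counts. The members and lists were chosen with earlier results of these data known. Alternatives were RLE or library-size scaling, no filter, 1 CPM in 3 tumors, a likelihood ratio test, DESeq2 1.42.0, limma-voom (limma 3.58.1), thinning to the smallest library, RPKM for shares, a 2-fold limit and leaving out each tumor.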

Additional observations from a re-analysis of the deposited data

Results flagged for a closer look

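Among the 6 BI tumors, a value that stood apart by Dixon's criterion (critical ratio 0.625) was found for 3 of 73 genes examined, and chance flags about 1 in 20 groups. No member of the 10 cytokine genes was among them. Il6ra, the IL-6 receptor, measured 141 CPM in BI replicate 5 and 109 to 114 CPM in the other BI tumors. Lyz2, a macrophage and granulocyte lysozyme, measured 2870.1 CPM in BI replicate 6 and 1559 to 2046 CPM in the others. Fabp4, a fatty acid binding protein of adipocytes and endothelium, measured 210.3 CPM in BI replicate 9 and 41.0 to 102 CPM in the others.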

How the results depend on the processing

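Each of the 10 cytokine genes kept its direction and its side of the threshold under all 8 alternative tests, filters and scalings (80 of 80 values). With 1 tumor left out, 86 of 90 values did so. The log2 fold changes then ranged from -1.02 to -0.56 for Il1a, from -1.02 to -0.82 for Il6, from 0.94 to 1.17 for Il10 and from 0.64 to 1.00 for Il12b. The members called higher numbered 0 (without vehicle replicate 3) to 2 (without BI replicate 6), and those called lower 3 to 5. Over all genes, between 1332 and 2026 were higher and between 1172 and 1980 lower with 1 tumor left out, the lowest counts without vehicle replicate 3 (1289 lower without vehicle replicate 1), and 449 were higher and 128 lower when a 2-fold limit was added. The pathway genes called lower over all lists numbered 31, and between 19 and 30 with 1 tumor left out, fewest without vehicle replicate 3. Reversals were limited to genes near 0: Il6ra ranged from -0.0286 (without BI replicate 5) to 0.0544, Osmr from -0.0027 (without vehicle replicate 1, and -0.0009 without BI replicate 6) to 0.1163, and Il12rb1 from -0.0257 (without vehicle replicate 2) to 0.1322. Leaving out a tumor also leaves fewer samples, and no other cause was tested. Among the other named genes, 495 of 558 values with a tumor left out and 485 of 496 under the other settings kept direction and side. The list of STAT3 targets had 5 lower genes in place of 3, and the TNF list 5 higher in place of 3, with DESeq2. No paired analysis was possible because the groups share no replicate numbers. Genes under about 0.177 CPM in the shallowest library are at the floor of 3 counts.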

Other observations

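Some cytokines of the same families stayed near the floor in these tumors and were not tested. Il24, an IL-10 family cytokine, had 5, 14 and 10 counts in the vehicle libraries and 8, 8, 0, 0, 1 and 1 in BI replicates 4 to 9. Il19 of the same family had 10, 4 and 7 counts under vehicle and 9, 4, 2, 5, 0 and 4 under BI. Il1f6, the RefSeq name of the IL-36 alpha gene, had 2 counts in vehicle replicate 3 and none elsewhere, which allows up to 3 counts, or between 0.0886 and 0.177 CPM, in a library. These values limit counting error only.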
